A study of Mus musculus with 12 samples.

Results

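The stress and growth response transcription factors of the mouse small intestine were followed through 4 time points of fasting. Members were the probes other than controls whose gene name in the 12 h scanner files starts as one of a fixed set of names (Fos, Jun, Egr, Atf, Creb, Crem, Cebp, Klf, Myc, Mxi1, Mad, Max, Maf, Nfe2, Ddit, Hif1a, Epas1, Srf, Ier, Id and Zfp36 with their relatives). Described here are 51 of the 20280 probes tested, which carry 42 gene names, and 7 of these names have several probes. No probe with the name Ddit3, Creb1, Crem, Max, Epas1 or of an Id gene was found by that rule, so those genes are not analysed here. Through the gene numbers in the files, all 51 probes were found in an annotation of the mouse assembly GRCm38.p6, where 5 names have since changed: Crebl1 is now Atf6b, Jund1 is Jund, Jundm2-pending is Jdp2, Mad is Mxd1 and Zfp364 is Rnf115. The last of these encodes a ubiquitin ligase and was matched by its letters alone.

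Male FVB mice of 6 weeks, with no genetic change named in the labels, were either fed (0 h) or had their chow withdrawn for 12, 24 or 72 h in metabolic cages, under an infrared lamp from 24 h on. Each of the 12 arrays carried the Cy3-labelled RNA of the whole small intestine pooled from 2 mice, 3 pools per time point, against a Cy5-labelled reference from 6 fed mice, whose numbers are those of the mice in the fed pools. For fed replicate 3 the source field gives its own 2 mice as the reference while the labelling protocol gives all 6. The labelling protocols also repeat 1 pair of mouse numbers for all 9 fasted pools and another for fed replicates 1 and 2, against the titles and source fields, which name a different pair for each pool of a time point and were followed here. By these names every pool held other mice, so n = 3 pools unless a spot was left out, p-values measure the spread between such pools, and the dyes were never swapped. In such samples fewer cells of a type and less RNA per cell cannot be told apart.

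These proteins link signals to transcription. Fos and Jun proteins pair to form AP-1, and together with Egr1, Ier2 and Zfp36 they belong to the immediate early genes, which cells switch on within minutes of growth factors, stress or refeeding without making new protein first. ATF and CREB proteins answer cyclic AMP, lack of amino acids and stress of the endoplasmic reticulum, C/EBP and Krüppel-like factors steer differentiation and metabolism, Myc and its partners drive growth, NF-E2-related factors guard against oxidants, and Hif1a answers low oxygen. In the intestine Klf4 marks the differentiated villus and Klf5 the dividing crypt cells.

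All values below are log2(Cy3/Cy5) after normalization, where 0 means the level of the fed reference, and a difference is one of mean log ratios between time points with its standard error (SE). Calls rest on the limma fit of all probes, with a Benjamini-Hochberg adjusted p under 0.05. One file format holds the arrays of fed and 72 h, which had a median Cy5 intensity of 124 to 142, and a second format those of 12 h and 24 h, with 392 to 627. Thus the comparisons of 72 h with fed and of 24 h with 12 h lie within a format, whereas in the other comparisons fasting time and format cannot be told apart. The reference channel should be alike on all arrays, and in it no probe was called between 72 h and fed (0% of all probes; 0 of 51 members). Between 12 h and fed the reference differed in 11 of 51 members (21.9% of all probes), between 24 h and fed in 7 (20.4%), between 24 h and 12 h in 8 (14.3%), and between 72 h and 24 h in 9 (13.8%). For this reason the change in the Cy3 channel alone is given beside the member calls between formats. Outlier spots, which were left out, made up 5.42% of the probes on replicate 1 of 12 h and 0.212% to 1.22% on the other 11 arrays, and 10 member spots were among them.

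At 72 h against fed, 7 of the 51 member probes were called, 5 higher and 2 lower, against 10.6% of all probes (4.8% higher, 5.8% lower). Creb3, Klf9, Egr1, Mycbp and Junb were higher, and Hif1a and Cebpg were lower. At 12 h against fed 6 members were called (10.9% of all probes), of which Klf5, Mxi1, Jund1 and Crebl1 were higher and Hif1a and Fos lower (4.9% and 6.02% of all probes). At 24 h against fed 4 were called (10.1% of all probes), all of them higher, namely Klf5, Klf9, Jund1 and Klf7 (3.79% of all probes were higher, 6.26% lower). Between 24 h and 12 h the 3 calls (2.92% of all probes) were Hif1a and Klf7, higher at 24 h, and Klf5, lower (1.23% and 1.69%). Between 72 h and 24 h there were 10 calls (10.6% of all probes), with Creb3, Ier2, Ier5, Egr1, Junb, Mycbp and Jun higher (5.87%) and Nfe2l2, Myc and Cebpg lower at 72 h (4.73%). Called members thus made up 11.8% after 12 h, 7.84% after 24 h and 13.7% after 72 h in the comparisons with fed, 5.88% for 24 h against 12 h and 19.6% for 72 h against 24 h. The median difference of the members was small, with -0.02 after 12 h, 0.12 at 24 h and 0.15 after 72 h, beside -0.02, 0.02 and 0.01 for all probes. In total 18 probes were called at least once and 33 never, and the differences of the latter lay between -0.78 and 0.87.

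**Figure D1:**
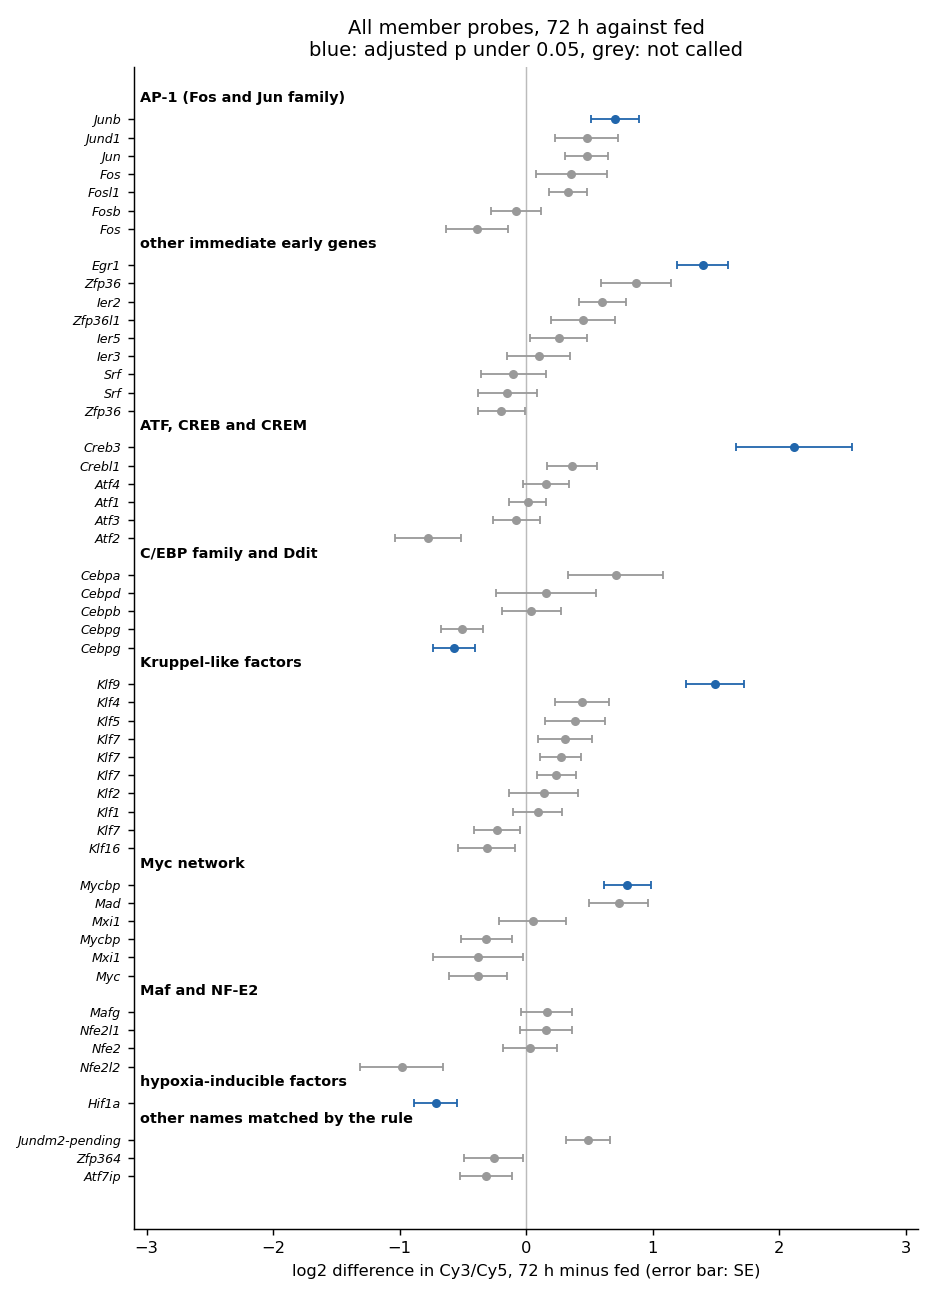
Difference in log2(Cy3/Cy5) between 72 h and fed for each of the 51 member probes, grouped by role. Points are differences of means over 3 pools a time point, bars are SE, and blue points passed an adjusted p under 0.05. Creb3, Klf9 and Egr1 stand farthest to the right, while the other 48 probes lie between -0.98 and 0.87.

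The promoters of the members called at 72 h are shown for those in which one of 4 short motifs was found, as 250 bases up to the start of transcription (RefSeq, GRCm38.p6). The motifs were the core of the cAMP response element (TGACG, present on either strand in 17.8% of all 32851 promoter windows of this length), the AP-1 site (TGANTCA, 6.75%), the E-box (CACGTG, 6.02%) and the CCAAT box (CCAAT, 33.8%), and capitals mark them as they stand on the strand printed. For 34 of the 42 member genes 42 windows were found, some genes having several, and of these 14 held the first, 2 the second, 5 the third and 19 the fourth. Junb and Klf9 were higher, and Hif1a and Cebpg lower at 72 h.
Junb, chr8:84978749-84978998, minus strand: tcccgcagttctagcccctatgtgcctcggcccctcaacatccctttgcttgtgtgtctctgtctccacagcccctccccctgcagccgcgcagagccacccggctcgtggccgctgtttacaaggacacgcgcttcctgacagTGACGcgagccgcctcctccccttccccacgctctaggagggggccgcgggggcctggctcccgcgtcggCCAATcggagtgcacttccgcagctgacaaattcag
Klf9, chr19:23140976-23141225, plus strand: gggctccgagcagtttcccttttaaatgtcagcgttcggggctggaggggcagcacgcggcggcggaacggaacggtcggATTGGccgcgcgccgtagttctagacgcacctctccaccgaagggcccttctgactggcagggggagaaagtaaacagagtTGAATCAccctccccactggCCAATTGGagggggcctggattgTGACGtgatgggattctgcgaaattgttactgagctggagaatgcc
Hif1a, chr12:73907617-73907866, plus strand: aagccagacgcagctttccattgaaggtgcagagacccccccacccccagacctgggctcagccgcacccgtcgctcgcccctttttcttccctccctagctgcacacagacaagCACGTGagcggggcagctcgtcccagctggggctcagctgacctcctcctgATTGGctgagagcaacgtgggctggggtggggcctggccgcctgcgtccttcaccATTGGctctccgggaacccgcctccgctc
Cebpg, chr7:35056567-35056816, minus strand: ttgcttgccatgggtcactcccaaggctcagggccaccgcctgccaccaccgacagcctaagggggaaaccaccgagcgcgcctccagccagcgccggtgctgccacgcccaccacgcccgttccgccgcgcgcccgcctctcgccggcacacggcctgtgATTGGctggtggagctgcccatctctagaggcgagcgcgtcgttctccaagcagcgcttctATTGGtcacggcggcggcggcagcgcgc
The Klf9 window held the core of a cAMP response element 46 bases before the start, an AP-1 site 89 bases before it and 3 CCAAT boxes, of which 1 on each strand overlap. That of Junb held the core of a cAMP response element 106 and a CCAAT box 36 bases before the start. Hif1a had an E-box 135 bases before the start and, like Cebpg, 2 CCAAT boxes on the opposite strand. In the windows of Creb3 and Mycbp none of these letters was found, and no window of Egr1 is reported here. These matches describe the sequence and say nothing of binding in these tissues.

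Of the 7 AP-1 probes Junb was called higher at 72 h, Jund1 higher at 12 h and 24 h, and Fos lower at 12 h. Junb was at -0.06, 0.11 and 0.10 in the fed pools, 0.17, -0.19 and -0.62 after 12 h, -0.23, -0.06 and -0.19 after 24 h, and 0.69, 0.97 and 0.60 after 72 h. All 72 h pools therefore lay above all 9 others. The difference from fed was 0.70 ± 0.19 (SE), or 1.63-fold (adjusted p = 0.0296), and from 24 h 0.92 ± 0.19, or 1.89-fold (adjusted p = 0.00919). In Cy3 alone these differences were 0.94 and 0.95. The call against fed was lost when any 1 of the fed pools or 72 h replicate 1 or 2 was left out (adjusted p 0.0595 to 0.123), whereas the call against 24 h held without each of the 12 arrays. Jun, the main partner of Fos, followed a like course, with -0.08, 0.01 and 0.01 when fed, -0.19, -0.10 and 0.36 after 12 h, -0.36, -0.10 and -0.07 after 24 h, and 0.46, 0.29 and 0.62 after 72 h. The 72 h pools did not overlap with the fed or 24 h pools, and Jun was 1.55-fold higher at 72 h than at 24 h (0.63 ± 0.17, adjusted p = 0.0322), but the difference from fed, 0.48 ± 0.17, did not pass (adjusted p = 0.0952). Cy3 alone differed by 0.67 between 72 h and 24 h. The call between these times was lost without any 1 of the 24 h pools or without 72 h replicate 1 or 3 (adjusted p 0.0616 to 0.121).

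Jund1, whose product is the most steadily expressed Jun protein, had the brightest member probe. It was at -1.20, -0.55 and -0.17 in the fed pools, -0.05, 0.24 and 0.37 after 12 h, 0.27, 0.15 and 0.23 after 24 h, and -0.20 and -0.12 after 72 h, where the spot of replicate 1 was left out as an outlier. The fed pools spread over more than 1 unit and lay below all 12 h and 24 h pools. Jund1 was 1.77-fold higher at 12 h (0.82 ± 0.22, adjusted p = 0.0353; 0.44 in Cy3 alone, not called) and 1.81-fold higher at 24 h (0.86 ± 0.22, adjusted p = 0.0308; 0.69 in Cy3 alone). Of 15 other settings of processing, 8 kept the 12 h call and 11 the 24 h call. Over these settings and the fits without 1 array, the 12 h difference ran from 0.000138 to 1.14. That at 24 h ran from 0.21 to 1.17. The 24 h call was lost without fed replicate 1 or 2 or any 24 h pool (adjusted p 0.0676 to 0.114), and the 12 h call without fed replicate 1 or 2, 12 h replicate 2 or 3, 24 h replicate 2 or 3 or 72 h replicate 2 or 3 (0.0504 to 0.122).

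Fos had a pair of probes, whose log ratios went in different directions at 12 h. The brighter one was at -0.65, -0.38 and 0.48 when fed, -0.98, -0.87 and -1.31 after 12 h, -0.55, -0.15 and -0.60 after 24 h, and -0.62, -0.45 and -0.65 after 72 h. It was 1.83-fold lower at 12 h than when fed (-0.87 ± 0.25, adjusted p = 0.0379), but Cy3 alone gave -0.44 with an adjusted p of 0.27. Without fed replicate 2 or 3, 12 h replicate 3, 24 h replicate 1 or 3 or any 72 h pool the call was lost (adjusted p 0.0507 to 0.129). The dimmer Fos probe gave 0.31 ± 0.28 for the same comparison, with an adjusted p of 0.483 and overlapping pools, but in Cy3 alone it was at -0.43 (adjusted p = 0.599), the same direction as the brighter probe, while Cy5 changed by -0.74. Fosb and Fosl1, further partners of Jun, were never called, and their differences from fed lay between -0.25 and 0.33.

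Of the other immediate early genes, Egr1, a zinc finger factor induced by growth signals, changed most. The fed pools were at -0.41, -0.14 and 0.27, those of 12 h at 0.46, 0.54 and 0.11, those of 24 h at 0.32, 0.56 and 0.35, and those of 72 h at 1.03, 1.56 and 1.32. The 72 h pools stood clear of all others. Egr1 was 2.63-fold higher at 72 h than when fed (1.4 ± 0.20, adjusted p = 0.000845; 1.58 in Cy3 alone) and 1.86-fold higher than at 24 h (0.89 ± 0.20, adjusted p = 0.0131; 1.64 in Cy3 alone). Its spot was well above background on 1 of the 3 fed arrays and on all 9 fasted ones. The call against fed held without each of the 12 arrays, and the call against 24 h was lost without 72 h replicate 2 (adjusted p = 0.0552).

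Ier2 and Ier5, early response genes, were higher at 72 h than at 24 h. Ier2 was at 0.27, 0.21 and 0.54 when fed, 0.04, -0.12 and -0.65 after 12 h, -0.15, 0.06 and 0.01 after 24 h, and 0.84, 1.10 and 0.88 after 72 h. The 4 time points did not overlap except for 12 h with 24 h. Between 72 h and 24 h it rose 1.95-fold (0.96 ± 0.19, adjusted p = 0.00645; 0.87 in Cy3 alone), which held without each of the 12 arrays. Against fed, 12 h gave -0.58 ± 0.19 (adjusted p = 0.0585) and 72 h 0.60 ± 0.19 (adjusted p = 0.0527), neither of which passed. At 12 h Cy3 alone had the opposite sign (0.17, adjusted p = 0.632), and the reference differed by 0.76 (adjusted p = 0.0431). Ier5 was at 0.18, 0.29 and 0.24 when fed, 0.70, -0.04 and -0.48 after 12 h, -0.45, -0.41 and -0.43 after 24 h, and 0.46, 0.49 and 0.54 after 72 h. The 3 pools of 24 h and of 72 h each agreed closely. Ier5 was 1.90-fold higher at 72 h than at 24 h (0.93 ± 0.22, adjusted p = 0.0189; 0.87 in Cy3 alone), a call lost without any 1 of the 24 h or 72 h pools (adjusted p 0.0516 to 0.0728).

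Zfp36, which speeds the decay of messenger RNAs of inflammation, had a bright probe at -0.67, -0.32 and 0.52 when fed, 0.26, -0.21 and 0.62 after 12 h, 0.36, 0.50 and 0.33 after 24 h, and 0.45, 1.01 and 0.68 after 72 h. At 72 h it differed from fed by 0.87 ± 0.27 and missed the threshold (adjusted p = 0.0581), while Cy3 alone gave 1.24 (adjusted p = 0.00351). Fed replicate 3 overlapped with the 72 h pools. The dimmer Zfp36 probe gave -0.20 ± 0.19 (adjusted p = 0.556). Srf, the serum response factor that controls many immediate early genes, was read best by a probe at -0.41, -0.27 and 0.33 when fed, 0.20, -0.29 and -0.62 after 12 h, -0.16, 0.19 and -0.26 after 24 h, and -0.39, -0.13 and -0.28 after 72 h. The pools of all times overlapped with those of fed, and neither Srf probe was called (differences from fed between -0.15 and 0.30). Ier3 and Zfp36l1 had no call either, with differences from fed between -0.38 and 0.66.

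**Figure D2:**
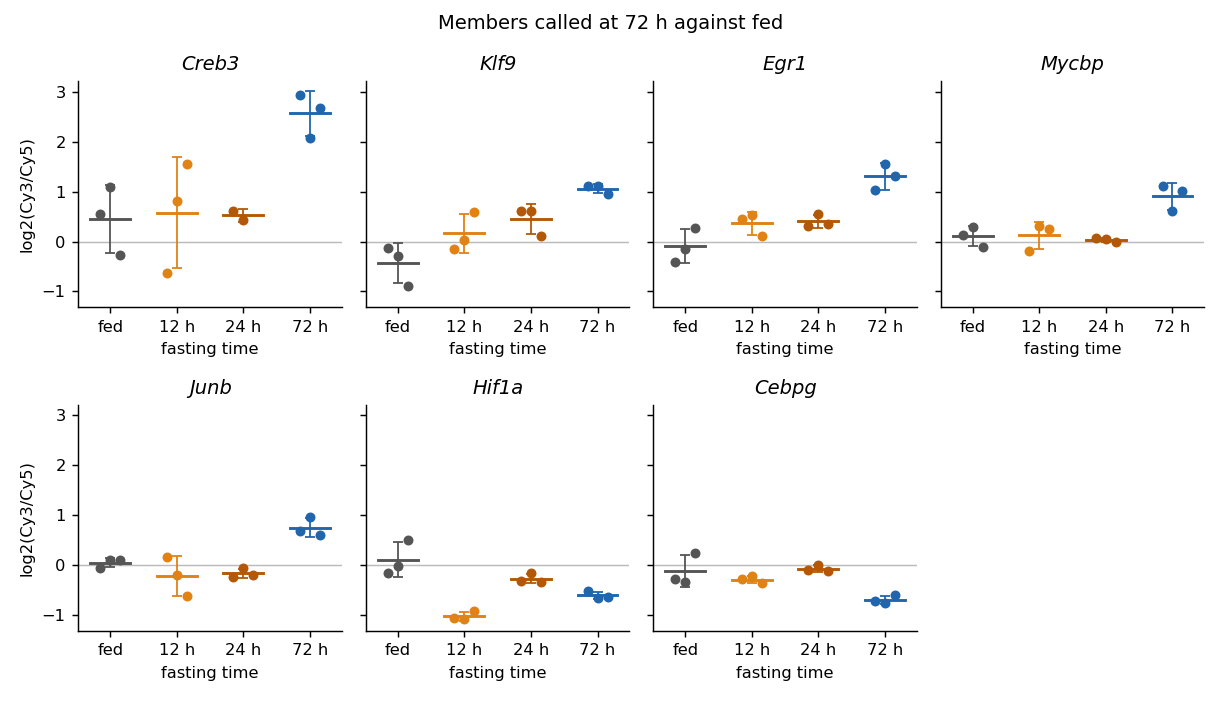
log2(Cy3/Cy5) of each pool (points) with the mean (line) and SD (bar) for the 7 members called between 72 h and fed. Creb3, Klf9, Egr1, Mycbp and Junb had their 3 pools of 72 h above all fed pools, and Hif1a and Cebpg below them. The spot of Creb3 on 24 h replicate 3 was left out.

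Among the ATF and CREB genes the largest change was that of Creb3, a membrane-bound factor of the endoplasmic reticulum and Golgi that is released by proteolysis. The fed pools were at 0.54, 1.09 and -0.28, the 12 h pools at -0.64, 0.81 and 1.56, the 24 h pools at 0.62 and 0.43 with the outlier spot of replicate 3 left out, and the 72 h pools at 2.94, 2.08 and 2.68. The fed and the 12 h pools spread widely, yet none of these pools or of those of 24 h reached the lowest pool of 72 h. Creb3 was 4.33-fold higher at 72 h than when fed (2.11 ± 0.46, adjusted p = 0.00976; 2.20 in Cy3 alone) and 4.11-fold higher than at 24 h (2.04 ± 0.51, adjusted p = 0.0239; 1.71 in Cy3 alone). The call against fed was lost without fed replicate 3 or 72 h replicate 1 (adjusted p 0.0612 to 0.0634), and that against 24 h without 24 h replicate 1 or 2 or 72 h replicate 1 or 3 (0.0738 to 0.117). No other ATF or CREB gene was called at 72 h.

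Crebl1 encodes a relative of ATF6, the sensor of misfolded protein. It was at 0.08, 0.26 and -0.34 when fed, 0.46, 0.59 and 1.04 after 12 h, 0.11, 0.13 and -0.18 after 24 h, and 0.18, 0.52 and 0.41 after 72 h. The 12 h pools lay above the fed and the 24 h pools, and the difference from fed was 0.70 ± 0.20, or 1.62-fold (adjusted p = 0.0389; 0.93 in Cy3 alone). The call was lost in 9 of the 12 fits that leave out 1 array (adjusted p 0.0507 to 0.144), those without fed replicate 1 or 3, 12 h replicate 2 or 3, 24 h replicate 1 or 2 or any 72 h pool. Of 15 other settings of processing 9 kept it, and the difference went down to 0.23. Atf4, which switches on genes of amino acid supply, was not called at any time. Its fed pools were at 0.46, 0.28 and 0.54, the 12 h pools at 0.40, -0.03 and 0.69, the 24 h pools at 0.04, 0.29 and -0.07, and the 72 h pools at 0.61, 0.52 and 0.61. The 72 h pools stood above those of 24 h, but this difference, 0.50 ± 0.18, did not pass (adjusted p = 0.0985). Atf3, an early stress gene, was at 0.08, 0.22 and -0.36 when fed, -0.19, -0.21 and 0.01 after 12 h, -0.18, 0.15 and -0.36 after 24 h, and 0.05, -0.18 and -0.17 after 72 h. All time points overlapped, and the difference from fed was -0.11 ± 0.19 at 12 h (adjusted p = 0.733) and -0.08 at 72 h (0.836). Atf1 and Atf2 were never called, with differences from fed between -0.78 and 0.01.

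Of the 5 C/EBP probes 1, of Cebpg, was called, and it was lower at 72 h. Cebpb, a factor of the acute phase response, was at -0.70, -0.53 and 0.28 when fed, -0.19, -0.21 and -0.71 after 12 h, -0.22, 0.02 and -0.17 after 24 h, and -0.39, -0.12 and -0.32 after 72 h. The 72 h pools lay within the range of the fed pools (0.04 ± 0.23, adjusted p = 0.934), and its differences from fed at 12 h and 24 h were -0.05 and 0.19. Cebpa, a factor of differentiation, was at 0.09, 0.25 and -0.09 when fed, 0.36, 0.43 and 0.43 after 24 h, and 0.87, 0.75 and 0.75 after 72 h, without overlap, but the difference of 0.71 ± 0.37 was not called (adjusted p = 0.26). Its 12 h pools were at 0.87, 0.56 and -1.24, and that spread entered the shared variance of the probe. Without 12 h replicate 3, Cebpa was called at 12 h, 0.63 higher than fed (adjusted p = 0.0279), where the fit of all arrays gave -0.02. In Cy3 alone all arrays gave -1.32 for this comparison (adjusted p = 0.00751) and Cy5 -1.30 (0.00667), and the 12 h pools, at 7.57, 7.82 and 6.66 in normalized log2 Cy3, lay below the fed pools at 8.75, 9.22 and 8.05. Both channels were thus lower at 12 h, also in the pools whose ratio was higher, and fasting time and file format cannot be told apart here. Cebpd was never called (differences from fed between 0.06 and 0.46). Cebpg, a partner of ATF4 without an activating domain, was at -0.28, -0.34 and 0.24 when fed, -0.28, -0.22 and -0.36 after 12 h, -0.10, 0.01 and -0.12 after 24 h, and -0.72, -0.75 and -0.61 after 72 h. The 72 h pools were lower than all others. The difference was -0.57 ± 0.17 from fed (1.48-fold lower, adjusted p = 0.0412) and -0.62 ± 0.17 from 24 h (1.54-fold lower, adjusted p = 0.0297). In Cy3 alone the differences were -0.39 (adjusted p = 0.214) and -0.48 (0.0986). The first call was kept only without fed replicate 2 or 12 h replicate 1 or 3 and otherwise had an adjusted p of 0.0501 to 0.15, while the second was lost without any 1 of the 24 h or 72 h pools (0.0655 to 0.113). The dimmer Cebpg probe gave -0.50 ± 0.17 against fed (adjusted p = 0.0743).

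The Krüppel-like factors held a strong change at 72 h in Klf9, a gene controlled by glucocorticoid and thyroid hormones. Its fed pools were at -0.14, -0.28 and -0.89, those of 12 h at -0.15, 0.04 and 0.60, those of 24 h at 0.62, 0.62 and 0.11, and those of 72 h at 1.11, 1.11 and 0.95. The mean log ratios thus stood in the order of fasting time, the fed pools lay below those of 24 h, and these below those of 72 h. In normalized log2 Cy3 the means of 12 h and 24 h were alike, at 6.99 and 6.98. Klf9 was 1.85-fold higher than fed at 24 h (0.88 ± 0.23, adjusted p = 0.0293; 0.57 in Cy3 alone) and 2.81-fold higher at 72 h (1.49 ± 0.23, adjusted p = 0.00143; 1.72 in Cy3 alone). It was well above background on 1 of the 3 fed arrays and on all 9 fasted ones. Leaving out any 1 array kept the 72 h call, while the 24 h call was lost without fed replicate 2 or 3 or 24 h replicate 1 or 2 (adjusted p 0.0563 to 0.112). In the fed and 72 h files this probe is named as a cDNA clone and described as similar to Klf9.

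Klf5 had the largest difference in log ratio of the 51 members, at 12 h, where 1 array gave its value and the reference channel differed rather than the sample channel. With outlier spots left out it was at -0.47 and -0.58 in 2 fed pools, 2.38 in replicate 3 of 12 h, 0.39, 0.81 and 0.34 in the 24 h pools, and 0.08 and -0.36 in 2 pools of 72 h. The single 12 h value stood above all others. The log ratio was 7.5-fold higher at 12 h than when fed (2.91 ± 0.29, adjusted p = 0.00196), whereas normalized Cy3 differed by -0.02 (adjusted p = 0.969) and Cy5 by -2.93 (adjusted p = 0.000294). The raw Cy5 intensity of that spot was 410, near the median of its array (404.5), and on the other 11 arrays it was between 1294 and 1829. Without this array no value remains at 12 h, and with the outlier spots kept the difference was 1.79 (adjusted p = 0.00881). At 24 h the log ratio of Klf5 was 2.06-fold higher than when fed (1.04 ± 0.22, adjusted p = 0.0179), with 0.40 in Cy3 alone (adjusted p = 0.176), and the call was lost without fed replicate 1 or 3 or 24 h replicate 2 (adjusted p 0.0505 to 0.0835). Between 24 h and 12 h its log ratio was lower (-1.86 ± 0.28, adjusted p = 0.00811), while Cy3 alone gave 0.42 (adjusted p = 0.322). At 72 h the difference from fed was 0.39 and was not called.

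Klf4 was at -0.62, -0.40 and 0.18 when fed, -0.27, -0.56 and -0.01 after 12 h, 0.09, 0.37 and -0.10 after 24 h, and 0.26, 0.16 and 0.07 after 72 h. Fed replicate 3 lay among the fasted pools, and no comparison was called (72 h against fed 0.44 ± 0.21, adjusted p = 0.212). Of the 4 probes of Klf7, a factor widely expressed and known from neurons and fat cells, 1 was called. It was at 0.08, -0.01 and -0.14 when fed, -0.36, -0.06 and -0.38 after 12 h, 0.57, 0.48 and 0.56 after 24 h, and 0.20, 0.35 and 0.10 after 72 h. Against 12 h it was 1.74-fold higher at 24 h (0.80 ± 0.15, adjusted p = 0.0136; 0.89 in Cy3 alone), a call lost without 24 h replicate 3 (adjusted p = 0.0517). Against fed it was 1.47-fold higher at 24 h (0.56 ± 0.15, adjusted p = 0.0326), but Cy3 alone gave -0.10 and Cy5 -0.66, and the call was lost without any 1 of the fed or 24 h pools (adjusted p 0.0622 to 0.0985). The brightest Klf7 probe gave 0.24 ± 0.16 for that comparison (adjusted p = 0.369). Klf1, Klf2 and Klf16 were not called, with differences from fed between -0.31 and 0.60.

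**Figure D3:**
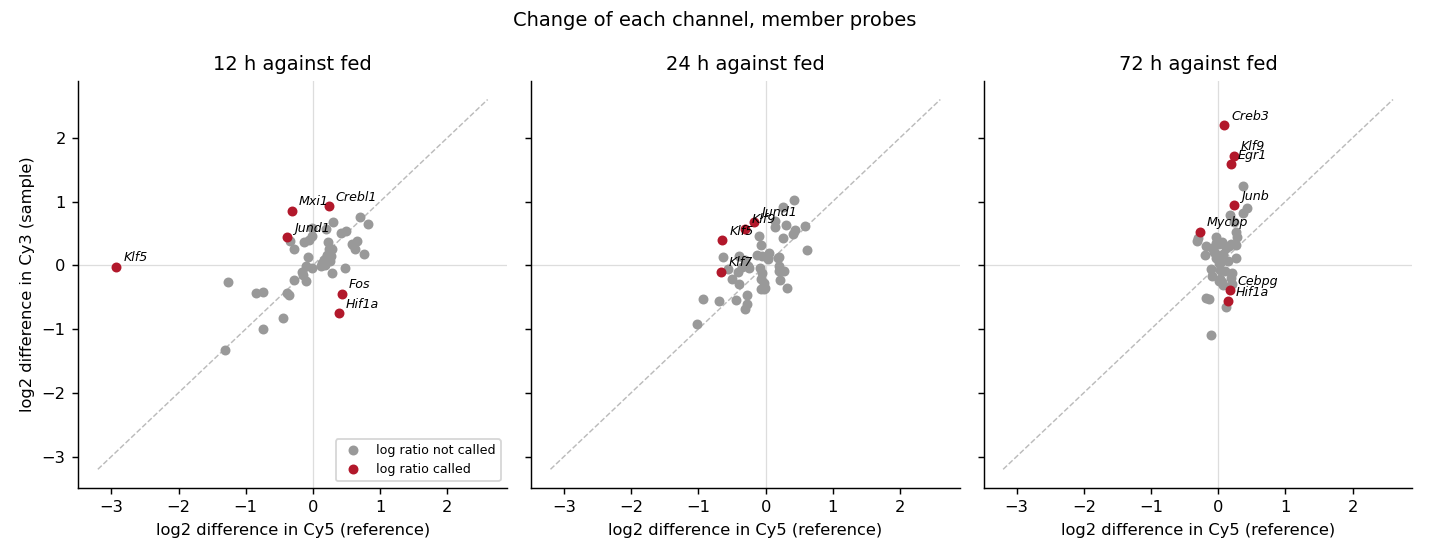
Change of the sample channel (Cy3, vertical) against that of the fed reference (Cy5, horizontal), both as log2 differences from the fed arrays, for the 51 member probes at 12, 24 and 72 h. At 72 h no member was called in the reference channel. The called members (red) do not stand apart from all uncalled ones in Cy3, where the brighter Zfp36 probe, not called, lies above Junb and Mycbp. At 12 h Klf5 lies at 0 in Cy3 and at -2.93 in Cy5. On the dashed line both channels change alike.

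In the Myc network the growth factor gene Myc itself was at -0.22, -0.12 and -0.21 when fed, 0.67, 0.42 and -0.12 after 12 h, 0.63, 0.44 and 0.04 after 24 h, and -0.97, -0.33 and -0.40 after 72 h. The 24 h pools lay above and the 72 h pools below the fed pools. Neither differed from fed by the test (0.56 ± 0.23, adjusted p = 0.136, and -0.38 ± 0.23, adjusted p = 0.327), but between 24 h and 72 h Myc fell 1.92-fold (-0.94 ± 0.23, adjusted p = 0.0195; -0.67 in Cy3 alone, adjusted p = 0.131). The call was lost without 24 h replicate 1 or 2 or 72 h replicate 1 (adjusted p 0.0669 to 0.113). Mycbp, which encodes a protein that binds Myc, was at 0.12, 0.30 and -0.10 when fed, -0.19, 0.30 and 0.25 after 12 h, 0.07, 0.04 and -0.01 after 24 h, and 1.11, 0.61 and 1.01 after 72 h. All 72 h pools were above all others, with 1.74-fold over fed (0.80 ± 0.18, adjusted p = 0.0126) and 1.83-fold over 24 h (0.87 ± 0.18, adjusted p = 0.00961). In Cy3 alone the differences were 0.53 (adjusted p = 0.396) and 0.40 (adjusted p = 0.502). The call against fed was lost without fed replicate 3 or 72 h replicate 1 or 3 (adjusted p 0.0509 to 0.0819), and that against 24 h without 72 h replicate 1 (0.0653). A dim Mycbp probe, not well above background on any fed array, gave no call.

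Mxi1 and Mad encode proteins that compete with Myc for their common partner. The dimmer of the Mxi1 probes was at -0.06, -0.02 and -0.99 when fed, 0.41, 1.34 and 0.72 after 12 h, -0.28, 0.13 and -0.30 after 24 h, and -0.25, -0.31 and -0.34 after 72 h. Its log ratio was 2.26-fold higher at 12 h than when fed (1.17 ± 0.27, adjusted p = 0.016, with 0.86 in Cy3 alone, adjusted p = 0.292). The call was lost without fed replicate 3 (adjusted p = 0.0645), and the probe was well above background on 2 of the 3 fed arrays. In normalized log2 Cy3 the 12 h pools were at 7.04, 9.59 and 6.58, and the fed pools at 7.14, 7.29 and 6.21. Replicates 1 and 3 of 12 h thus lay within the fed range, and only replicate 2 lay above it. In Cy5 replicates 1 and 3 of 12 h were at 6.63 and 5.87, below all fed arrays, and replicate 2 at 8.26, above them. The brighter probe was at -0.24, -0.17 and -0.31 when fed, -0.08, -0.18 and 1.72 after 12 h, 0.19, -0.03 and 0.01 after 24 h, and -0.57, -0.71 and -0.57 after 72 h. Its 12 h replicate 3 stood far above the rest, and no comparison was called (12 h against fed 0.72 ± 0.35, adjusted p = 0.191). Mad was not called, with differences from fed between 0.28 and 0.73.

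Nfe2l2 encodes NRF2, which turns on antioxidant and detoxifying enzymes. It was at -0.12, 0.00 and -1.37 when fed, -0.04, 0.41 and 1.13 after 12 h, 0.30, 0.42 and 0.07 after 24 h, and -1.53, -1.41 and -1.51 after 72 h. Fed replicate 3 stood close to the 72 h pools and apart from the other fed pools. From 24 h to 72 h Nfe2l2 fell 3.36-fold (-1.75 ± 0.33, adjusted p = 0.00531; -1.22 in Cy3 alone, adjusted p = 0.0364), and the call held without each of the 12 arrays. The difference between 72 h and fed, -0.98 ± 0.33, did not pass (adjusted p = 0.0694), nor did that of 12 h, 1.00 ± 0.33 (adjusted p = 0.0625), in which Cy3 changed by -0.26 and Cy5 by -1.26. Mafg, Nfe2 and Nfe2l1 were never called, and their differences from fed lay between -0.38 and 0.16.

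Hif1a, the subunit of the hypoxia-inducible factor that oxygen destabilizes, was lower than fed after 12 h and after 72 h. The fed pools were at -0.15, -0.02 and 0.51, the 12 h pools at -1.06, -1.08 and -0.92, the 24 h pools at -0.31, -0.16 and -0.33, and the 72 h pools at -0.52, -0.66 and -0.64. No fasted pool reached the lowest fed pool, and the pools of the 3 fasting times did not overlap. Hif1a was 2.19-fold lower than fed at 12 h (-1.13 ± 0.17, adjusted p = 0.00316; -0.75 in Cy3 alone, adjusted p = 0.0301), which held without each of the 12 arrays. At 72 h it was 1.64-fold lower (-0.72 ± 0.17, adjusted p = 0.0164; -0.56 in Cy3 alone, adjusted p = 0.118), a call lost without fed replicate 3 or any 1 of the 72 h pools (adjusted p 0.0527 to 0.0654). At 24 h the difference of -0.38 ± 0.17 was not called (adjusted p = 0.173), although Cy3 alone gave -0.69 (adjusted p = 0.0312). The log ratio was 1.68-fold higher at 24 h than at 12 h (0.75 ± 0.17, adjusted p = 0.0322), while Cy3 alone differed by 0.06 and Cy5 by -0.69, and 7 of the 12 fits without 1 array lost that call (adjusted p 0.0515 to 0.118), those without 12 h replicate 2 or any 24 h or 72 h pool. The 3 remaining probes (Atf7ip, Jundm2-pending and Zfp364) were never called, and their differences from fed lay between -0.32 and 0.49.

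**Figure D4:**
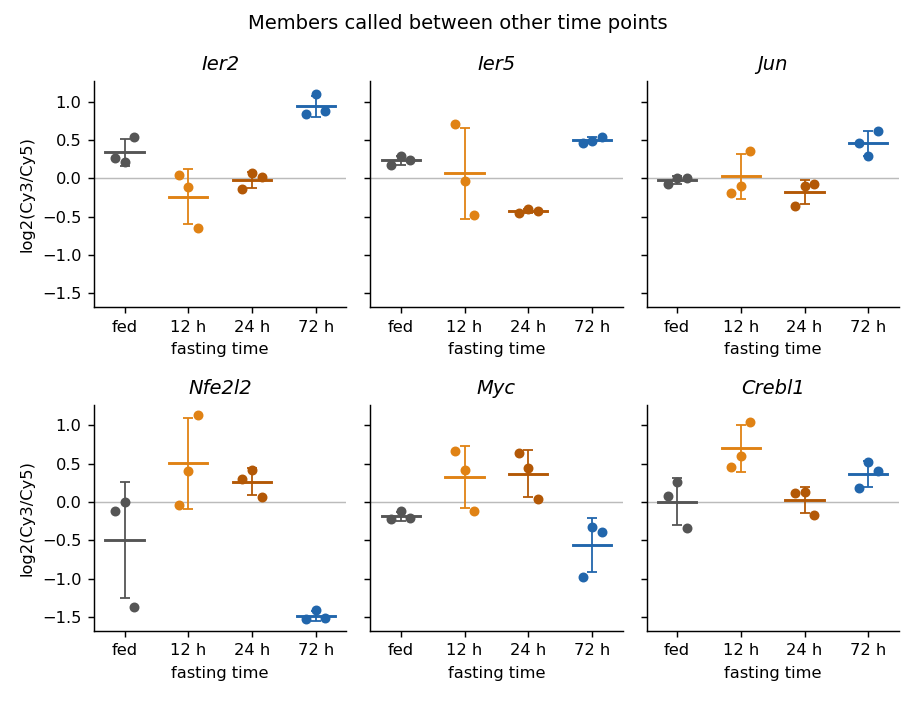
log2(Cy3/Cy5) of each pool (points) with the mean (line) and SD (bar) for 6 members. Ier2, Ier5 and Jun were higher at 72 h than at 24 h, Nfe2l2 and Myc were lower, and Crebl1 was higher at 12 h than when fed.

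Genes that these factors are known to control moved unevenly, and are given by list. Of 6 cAMP and CREB targets measured, 3 were higher and 1 lower at 72 h than when fed, with a median difference of 0.64. Pck1, the key enzyme of gluconeogenesis, was 2.82-fold higher at 12 h (adjusted p = 0.00469), 3.66-fold at 24 h (0.00113) and 5.54-fold at 72 h (9.98e-05). Cy3 alone gave 1.30, 1.88 and 3.71, and the reference differed by 1.24 after 72 h. Dusp1, an immediate early phosphatase of MAP kinases, was 4.53-fold higher at 72 h (2.18, adjusted p = 0.00228; 2.29 in Cy3 alone), and Odc, the first enzyme of polyamine synthesis, 1.95-fold (adjusted p = 0.0192). Rgs2, a brake on G protein signals, was 2.19-fold lower at 72 h (adjusted p = 0.00463; -0.93 in Cy3 alone). It was also called 2.43-fold lower at 12 h (adjusted p = 0.00527), where Cy3 alone gave -0.37 and the reference 0.91. Of 9 measured genes of the amino acid response, none was called at 72 h and 3 were higher at 12 h. These were Asns, asparagine synthetase, with 3.15-fold (adjusted p = 0.00196), Nupr1 with 3.1-fold (0.00414) and Eif4ebp1, an inhibitor of translation, with 2.47-fold (0.012), and Cy3 alone gave 1.14, 1.23 and 0.98 for them. Asns had fallen again by 2.5-fold from 12 h to 24 h (adjusted p = 0.00656), and at 24 h Nupr1 (1.02, with 0.68 in Cy3 alone) and Cars (0.55, but -0.15 in Cy3 alone) were higher than fed.

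The 14 measured targets of NRF2 had 1 called higher and 5 called lower at 72 h, with a median of -0.35, beside 0.01 for all probes. Gsta4, a glutathione transferase, was 3.70-fold lower (adjusted p = 0.00971), Fth, the heavy chain of ferritin, 2.74-fold (0.00149) and Txn1, thioredoxin, 1.78-fold (0.0094), whereas Hmox1, heme oxygenase, was 2.08-fold higher (0.00226). At 12 h Gclm (-1.25) and Txnrd1 (-0.68) were called lower, but Cy3 alone gave -0.24 and -0.09. At 24 h Gsta4 was called lower (-1.09, with -1.11 in Cy3 alone) and Hmox1 higher (0.69), although Cy3 alone gave -0.09 for the latter and Cy5 -0.79. Of 15 targets of HIF, 3 were lower at 72 h and none higher, namely the lactate dehydrogenase gene Ldh1 (2.46-fold, adjusted p = 0.0039), Egln3, a prolyl hydroxylase (1.83-fold, 0.0047), and Bnip3 (1.46-fold, 0.0464), and the median was -0.22. The log ratio of Hif1a was lowest at 12 h, although its Cy3 alone differed by only 0.06 between 24 h and 12 h. At 12 h 1 target was lower (Egln3, 1.83-fold, adjusted p = 0.00831, with -0.75 in Cy3) and 1 higher (Eno1, 7.26-fold, 0.0389, with 1.27 in Cy3 and -1.59 in the reference). At 24 h Bnip3l (-1.02, adjusted p = 0.00821, with -0.81 in Cy3) and Egln3 (-0.60, 0.0365, with -1.21 in Cy3) were lower and none higher. Of 14 Myc targets 1 was higher (Odc) and 3 lower at 72 h, with Hspe1, a mitochondrial chaperonin, 3.45-fold lower (adjusted p = 0.000121), Cdk4 1.91-fold (0.00151) and Eif4e 1.53-fold (0.0379). The 23 targets of SRF and AP-1 had 2 higher (Timp1 and Myh11) and 2 lower (Ccnd1 and Tpm2) at 72 h and a median of -0.05. The counts of all these target lists stand beside 4.8% of all probes called higher and 5.8% lower at 72 h. At 12 h these shares were 4.9% and 6.02%, and at 24 h 3.79% and 6.26%.

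The tissue was checked by markers of its cells. Counts of called markers are for 72 h against fed unless another time is named. Of all probes, 4.9% were called higher than fed and 6.02% lower at 12 h. These shares were 3.79% and 6.26% at 24 h, and 4.8% and 5.8% at 72 h. All 5 measured markers of absorptive enterocytes and all 7 of smooth muscle were well above background on at least 1 array of every time point. At 72 h 3 of 7 markers of B and plasma cells were called lower, and their summed normalized Cy3 intensity lay between 4550 and 5390 in the fed pools and between 1698 and 2138 after 72 h. Of the proliferation markers of the crypt 2 of 8 (Pcna and Cdc2a) were lower at 72 h, and the sum ranged from 2460 to 3575 when fed and from 1857 to 1997 after 72 h. Smooth muscle markers were higher in 5 of 7 after 12 h, in 3 at 24 h and in 2 after 72 h, with sums of 4804 to 6323 when fed, 5969 to 7583 after 12 h, 5627 to 7304 at 24 h and 6950 to 7818 after 72 h. The 12 h and 24 h calls lie between file formats. At 12 h Cy3 alone gave 0.55 for Smtn, 0.70 for Actg2, 1.26 for Des and 1.15 for Mylk, while Cy5 gave -0.88, -1.09, -0.46 and -0.43. At 24 h Cy3 alone gave 1.83 for Des, 0.64 for Smtn and 1.17 for Mylk, and Cy5 -0.15, -0.48 and -0.04. Of the T cell markers 1 of 4 was lower at 72 h, with sums of 798 to 830 when fed and 576 to 683 after 72 h, and of the goblet and Paneth cell markers 1 of 3, with 10991 to 43811 and 11043 to 14122. None of the 4 endothelial markers was called then, though their sum lay between 702 and 756 when fed and between 886 and 924 after 72 h. Of 2 macrophage, 2 neuron and glia, 1 pancreatic and 1 erythroid markers none was called at 72 h against fed either. The erythroid Slc4a1 was called higher than fed at 12 h (0.57) and 24 h (0.60), with 0.14 and 0.08 in Cy3 alone. Of the macrophage markers, Fcgr3 was called lower than fed at 12 h (-0.73, with -0.53 in Cy3 alone). Csf1r was called lower at 72 h than at 24 h (-0.51, with -0.45 in Cy3 alone). The macrophage sum was 1060 to 1075 when fed and 986 to 1028 after 72 h, that of neurons and glia 208 to 218 and 166 to 195, and the pancreatic and erythroid markers are single probes. Enterocyte markers summed to between 80283 and 132662 when fed and between 103731 and 108163 after 72 h. Anpep was called 10.8-fold higher than fed at 12 h, with 1.30 in Cy3 alone and -2.13 in Cy5. No marker of fat tissue was measured. What part these changes had in the levels of the members was not tested.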

How the data were processed

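RNA of 12 pools was measured on 2-colour Agilent arrays. The authors deposited the scanner output, with median foreground and background intensities per spot, neither corrected nor normalized, flags, and log10 ratios whose decimal points are partly displaced. The value table they deposited holds these log10 ratios with the sign turned (Cy3 over Cy5). The authors' own processing subtracted the background, quantile normalized and used a Split-Factor analysis of variance, for which limma stood in here. Here normexp (offset 50) served as background correction of the median intensities, followed by quantile normalization over all 24 channels. Of 21446 spots, 1075 controls, 91 spots marked as retired and outlier spots were left out. The log2(Cy3/Cy5) of 20280 probes was fitted with limma 3.58.1 (R 4.3.3) with a mean per time point over all 12 arrays, moderated with eBayes, and adjusted by Benjamini-Hochberg over all probes. In data simulated for 12 h against fed over 20280 probes, 5 of 50 changes of 1.5-fold, 37 of 50 of 2-fold, 50 of 50 of 3-fold and 50 of 50 of 4-fold were recovered, with 6 false calls. The simulated noise was independent and of equal size on all arrays, with no difference between file formats and no missing spots. These numbers therefore do not cover the differences between arrays and formats found in the real data. Precision is limited by the number of arrays and by a median Cy5 intensity of only 1.65 to 2.11 times its background, against 3.36 to 6 times in Cy3.

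Members and lists were chosen with earlier results of these data known, and 2 of the 53 probes that the rule took are not reported here. Values per pool are given for all members called in a comparison and for a list of core members, and those of other members as ranges. A gene with several probes is led by the brightest, and of each target list up to 4 called genes with the smallest p are named. Alternatives changed background, normalization, flags, filters, the model and the arrays used. Pools with the same number are of different mice and their deviations did not go together. Python 3.11.15 with pandas 2.3.3 and matplotlib 3.10.9 drew the plots.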

Additional observations from a re-analysis of the deposited data

Results flagged for a closer look

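The effects of fasting against fed differed between 12 h and 24 h, by the test of the difference itself, for Hif1a and for 1 Klf7 probe. The other Klf7 probes were not called. Klf5 was called as well but on 1 array at 12 h, so that its difference has no replication at that time. The log2 differences of 24 h minus 12 h were 0.75 for Hif1a, 0.80 for that Klf7 probe and -1.86 for Klf5. For Hif1a and Klf5 the reference channel differed as well, so that Cy3 alone gave 0.06 and 0.42.

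Between 24 h and 72 h the effects differed for 10 members. The differences of 72 h minus 24 h were 2.04 for Creb3, 0.96 for Ier2, 0.93 for Ier5, 0.92 for Junb, 0.89 for Egr1, 0.87 for Mycbp, 0.63 for Jun, -0.62 for Cebpg, -0.94 for Myc and -1.75 for Nfe2l2. These time points were deposited in different file formats.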

How the results depend on the processing

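Of the 30 calls of a member in a comparison, 6 were kept when any 1 of the 12 arrays was left out, and 5 of these also in every other setting run for them: Egr1 and Klf9 at 72 h against fed, and Ier2, Junb and Nfe2l2 at 72 h against 24 h. A further 2, those of Klf5 at 12 h against fed and 24 h against 12 h, rest on 1 array at 12 h that could not be left out. All 30 were kept with the background subtracted, with dim probes filtered or without saturated spots, 16 with median centring, 15 in Cy3 alone and 15 without moderation of the variance.

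The number of members called at 12 h against fed (6) was 2 with the Feature Extraction log ratio, 2 with the value table, 0 when only the arrays of the 2 time points entered (where no probe of the array was called), 3 without moderation and 10 directly against the reference. At 24 h against fed (4) it was 10 with loess, 7 with the Feature Extraction log ratio, 7 with the value table, 9 in Cy3 alone, 7 with only the 2 time points, 1 without moderation and 15 with array weights. At 72 h against fed (7) it was 12 with loess, 11 with the value table, 13 with only the 2 time points, 24 with array weights, 21 directly against the reference, 14 with normalization within each file format (an alternative chosen after seeing the data) and 12 at an unadjusted p under 0.01 and 1.4-fold. At 24 h against 12 h (3) it was 0 with median centring, 1 with the Feature Extraction log ratio, 1 with the value table, 0 with only the 2 time points, 1 without moderation and 5 at an unadjusted p under 0.01 and 1.4-fold. At 72 h against 24 h (10) it was 6 with median centring, 16 with only the 2 time points and 16 with array weights. The causes were not tested.

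With the replicate number as a block, 4, 4, 6, 2 and 10 members were called in these 5 comparisons, in place of 6, 4, 7, 3 and 10. Leaving out each array in turn gave 3 to 14, 0 to 7, 2 to 15, 1 to 6 and 4 to 15 calls. The array weights ran from 0.168 to 4.59, and 12 h replicate 3 had the lowest. Without that array 3, 7, 15, 3 and 15 members were called. Of all probes 1481, 3987, 3734, 640 and 3942 were then called, in place of 2213, 2038, 2150, 592 and 2150.

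In Cy3 alone the direction turned for Klf5 at 12 h against fed (-0.022) and at 24 h against 12 h (0.42) and for Klf7 at 24 h against fed (-0.10), and calls in the other direction appeared for Ier5 at 12 h against fed (0.65) and for the dimmer Zfp36 probe at 24 h against fed (-0.92) and 72 h against 24 h (0.83). Without 12 h replicate 3 this held for Cebpa at 12 h against fed (0.63), which lay between -0.43 and 0.63 over the fits without 1 array. The cause was not tested. Egr1 and Klf9, well above background on 1 of 3 fed arrays, and a reference channel near its background limit the precision of the fed levels.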
